A study of Caenorhabditis elegans with 8 samples.

Results

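The 7 fatty acid desaturase genes of Caenorhabditis elegans, fat-1 to fat-7, were followed through 8 RNA sequencing libraries of whole animals. They were taken by name from a table of 47087 loci, and each name matched 1 WormBase gene. All 7 passed the expression filter, an average over the 8 libraries of 1 FPKM or more (reads scaled to gene length and to sequencing depth), as did 14358 genes in all. The animals were of the wild-type strain N2, grown from synchronized larvae for 40 h at 20 °C on a bacterial lawn and labelled as young adults. The group DL (4 libraries) was kept under cycles of 12 h of light at 8000 lux and 12 h of darkness, and the group NL (4 libraries) in constant darkness. A DL and an NL library share each of the 4 batches that the labels name. Neither the number of cycles nor the hour of collection is stated. Nothing in the labels shows that replicates are separate cultures, so p-values refer only to the spread among these 8 libraries, part or all of which could be technical.

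Fatty acid desaturases insert double bonds into fatty acid chains, and C. elegans can build its polyunsaturated fatty acids from saturated ones with its own enzymes. FAT-5 acts mainly on palmitic acid and FAT-6 and FAT-7 on stearic acid, each placing the first double bond (Δ9). FAT-2 then turns oleic into linoleic acid (Δ12), FAT-1 converts omega-6 into omega-3 fatty acids, and FAT-3 (Δ6) and FAT-4 (Δ5) act at successive steps towards arachidonic and eicosapentaenoic acid. In worms the products set membrane fluidity, are stored as fat and serve as precursors of signals, and FAT-6 and FAT-7 can stand in for each other.

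In the annotation of WBcel235, 5 of the genes lie on chromosome IV and 2 on chromosome V. The genes fat-1 (IV, 13315644 to 13318811) and fat-2 (IV, 13323873 to 13326395) are neighbours on the plus strand, 5061 bases apart. The genes fat-4 (IV, 9799429 to 9802226) and fat-3 (IV, 9803023 to 9806119) are likewise neighbours on the plus strand, 796 bases apart. The stearoyl desaturase gene fat-6 lies on the minus strand of IV (11913692 to 11915687), and its relative fat-7 on the minus strand of V (7151353 to 7153146). The palmitoyl desaturase gene fat-5 (V, 17725004 to 17726818) shares 28 exon bases with twk-42 of the other strand. The kit does not mark strand, so reads of those bases cannot be told apart, although twk-42 stood at 4.66 to 6.14 FPKM in DL and 3.03 to 6.34 FPKM in NL, well under fat-5. Values are per whole gene, over all annotated exons.

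Depth ranged from 18628030 to 20394371 gene reads per library, as worked out from the spacing of low FPKM values. Of these, 100 to 941 reads of a library fell in fat-7, 769 to 1409 in fat-5 and 2686 to 17886 in each of the other 5 genes. The read total behind the FPKM scale was 0.938 (DL 3) to 1.159 (DL 1) times the gene reads. The order of libraries with close FPKM values therefore depends on the scaling. Markers of intestine, hypodermis, muscle and neurons were detected in every library of these whole animals. Libraries differed within both groups. The adult transcripts vit-2 (a yolk protein) and col-19 (a cuticle collagen) stood at 41.8 FPKM or more in DL 2 and NL 3 and at 4.1 FPKM or less in the other 6 libraries, although all 8 are labelled as young adults. The mean log2(FPKM + 1) of 26 major sperm protein genes was 4.82 to 7.02 in the DL libraries, and 1.61, 1.87, 5.18 and 0.58 in NL 1 to NL 4. NL 1 and NL 2 were the most alike pair of a group (chi-square per gene 8.06 against 23.7 to 116 for the other pairs), which is still more than sampling noise. Where leaving out NL 1 and NL 2, or NL 3 and DL 2, moved a value of a desaturase gene or of a list of lipid genes markedly, the value without them is given too.

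The transcripts of fat-6 and fat-2 were the most abundant of the family and those of fat-7 the least. In order of the mean FPKM over the 8 libraries, fat-6 stood at 571, fat-2 at 501.5, fat-1 at 392, fat-4 at 304, fat-3 at 154, fat-5 at 47.8 and fat-7 at 16.9 FPKM. FPKM is a level per length, so these levels can be set side by side. Members at the top, 5 of 7, lay among the highest expressed genes, from rank 227 (fat-6) to rank 811 (fat-3) of the 14358, while fat-5 ranked 2271 and fat-7 ranked 5531. Neighbours in this order were not all apart. The level of fat-6 exceeded that of fat-2 in 6 of 8 libraries, and their mean log2 ratio of 0.18 was smaller than its SD over libraries of 0.35. The level of fat-1 exceeded that of fat-4 in 7 of 8 libraries. The other 4 neighbouring pairs kept their order in all 8 libraries, and the ranges did not overlap between fat-4 and fat-3 or between fat-3 and fat-5. Together the 7 genes summed to 1969 ± 258 FPKM in DL and 2006 ± 211 FPKM in NL (SD, n = 4 each), with ranges of 1618 to 2167 FPKM in DL and 1700 to 2183 FPKM in NL that overlapped.

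**Figure D1:**
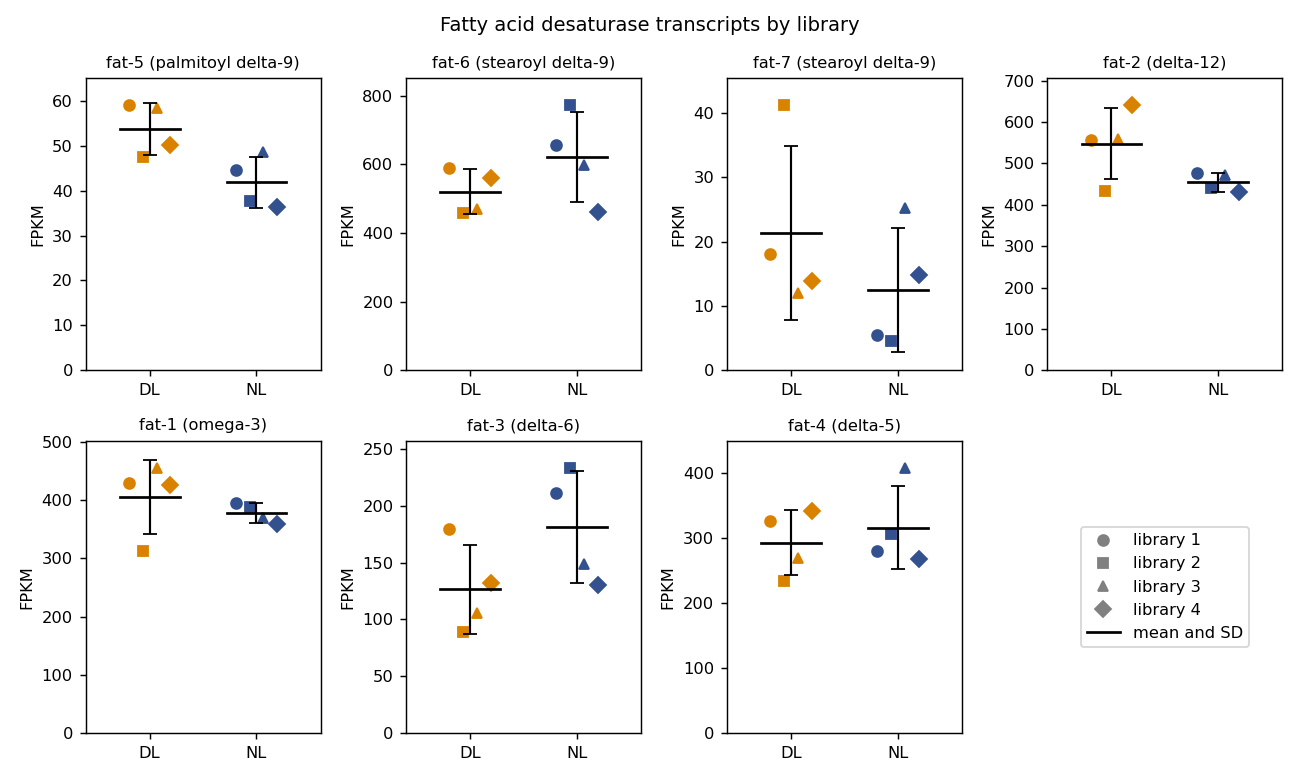
FPKM of each desaturase gene (vertical axes, from 0) in the 4 DL and 4 NL libraries; each symbol is a library and the black lines give the mean and SD of a group. The groups overlap in all 7 panels, fat-5 comes closest to separation (DL 47.6 to 59.1, NL 36.4 to 48.6 FPKM), and fat-7 spreads most within the groups.

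The series asks what a light and dark cycle does to the transcriptome relative to constant darkness, and no desaturase gene passed the test for it. Limma (two-sided, Benjamini-Hochberg adjustment over the 14358 genes, threshold 0.05) called 0 of the 7 genes, against 101 of all tested genes, 42 higher and 59 lower in DL, or 0.703%. A share of 0 of 7 is near that background and sets the family apart in no way; the intervals below give the range of changes that the libraries allow. Unadjusted, 1 of the 7 (fat-5) had a limma p under 0.05, against 20.6% of all tested genes; with DL higher, as for fat-5, the background was 12.4%. The median log2 change of the 7 was 0.09, against 0.03 over all tested genes, with 4 positive and 3 negative values; it was -0.02 without both NL 1 and NL 2. The groups overlapped for all 7 genes; they did not overlap for 9.24% of tested genes. Changes are differences of log2(FPKM + 1), DL minus NL, with 95% intervals from the same fit.

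Among the Δ9 enzymes, fat-5 came closest to a difference between the groups. Transcripts of fat-5 stood at 59.1, 47.6, 58.4 and 50.1 FPKM in DL 1 to DL 4, against 44.6, 37.8, 48.6 and 36.4 FPKM in NL 1 to NL 4. By FPKM, DL 1, DL 3 and DL 4 were above every NL library, and DL 2 lay just under NL 3. By share of gene reads, DL 4 (1096 of 20394371) also lay under NL 3 (1067 of 18811370). DL was above NL in all 4 batches, as for 13.3% of tested genes. The means were 53.8 ± 5.84 FPKM in DL and 41.9 ± 5.76 FPKM in NL (SD, n = 4 each), and DL minus NL on the log2 scale was 0.36 ± 0.14 (SE; interval 0.03 to 0.68; limma adjusted p = 0.196). The direction was the same under all 23 alternatives, from 0.30 to 0.49, and the adjusted p was 0.0311 with library weights and 0.108 to 0.507 in the others.

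The major stearoyl desaturase transcript, fat-6, stood at 589.9, 459, 469 and 561 FPKM in DL 1 to DL 4, against 655, 773, 597 and 460.5 FPKM in NL 1 to NL 4. By FPKM, NL 1, NL 2 and NL 3 were above every DL library, and NL 4 lay beside the lowest DL libraries. By share of gene reads, DL 1 (14851 of 18628030) was above NL 1 (14411 of 18824015) and NL 3 (13836 of 18811370). The means were 520.0 ± 65.4 FPKM in DL and 621 ± 130 FPKM in NL (SD, n = 4 each), a log2 change of -0.24 ± 0.19 (interval -0.68 to 0.20; limma adjusted p = 0.536). Without both NL 1 and NL 2, an alternative chosen after the values were seen, the log2 change was -0.02.

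The minor stearoyl desaturase transcript, fat-7, varied most of the family. It stood at 18.0, 41.2, 12.1 and 13.9 FPKM in DL 1 to DL 4, against 5.41, 4.47, 25.2 and 14.8 FPKM in NL 1 to NL 4. DL 2 and NL 3, the libraries with adult transcripts, held the highest values of their groups, and NL 1 and NL 2 the lowest of all 8. From NL 2 to DL 2 the level differed 9.22-fold, a log2 range of 2.95, wider than for 91.7% of tested genes. The means were 21.3 ± 13.5 FPKM in DL and 12.5 ± 9.70 FPKM in NL (SD, n = 4 each), a log2 change of 0.86 ± 0.54 (interval -0.37 to 2.09; limma adjusted p = 0.418). That interval spans no change as well as a log2 change of 2. Without both NL 1 and NL 2 the log2 change was -0.03 (limma adjusted p = 0.983), and without both NL 3 and DL 2 it was 0.91 (limma adjusted p = 0.238). It was 0.50 without DL 2, 1.28 without NL 3, 0.60 without NL 1 and 0.52 without NL 2. Leaving out DL 2 alone thus lowered the change and leaving out NL 3 alone raised it. The value without both therefore does not measure the part of either library, which was not tested.

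Enzymes that act after oleic acid showed small or uneven differences. Expression of fat-2, the Δ12 desaturase that makes linoleic acid, was 558, 435, 559 and 642 FPKM in DL 1 to DL 4, against 477, 440.1, 472 and 430.0 FPKM in NL 1 to NL 4. DL 1, DL 3 and DL 4 were above every NL library, while DL 2 lay among them. The log2 change was 0.26 ± 0.16 (interval -0.10 to 0.62; limma adjusted p = 0.409).

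For its neighbour fat-1, the omega-3 desaturase, the levels were 430.2, 312, 456 and 425 FPKM in DL 1 to DL 4, against 396, 387, 369.8 and 359 FPKM in NL 1 to NL 4. As with fat-2, DL 2 was the lowest DL library and the other 3 lay above all NL libraries. The log2 change was 0.09 ± 0.16 (interval -0.27 to 0.45; limma adjusted p = 0.796). Both genes were tight within NL, with a coefficient of variation of 4.42% for fat-1 and 5.11% for fat-2, and looser within DL (15.7% and 15.6%).

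Of the enzymes of the later steps, fat-3, the Δ6 desaturase, had the lowest log2 change of the family. Its levels were 179.5, 88.8, 105 and 132 FPKM in DL 1 to DL 4, against 212, 234, 149 and 131 FPKM in NL 1 to NL 4. NL 1 and NL 2 were above every DL library, whereas NL 3 and NL 4 fell between the DL extremes. The means were 126 ± 39.6 FPKM in DL and 181 ± 49.3 FPKM in NL (SD, n = 4 each), a log2 change of -0.53 ± 0.26 (interval -1.12 to 0.06; limma adjusted p = 0.298). It was -0.19 (limma adjusted p = 0.795) without both NL 1 and NL 2.

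The Δ5 desaturase gene fat-4, which lies next to fat-3, stood at 326, 234, 269.8 and 342 FPKM in DL 1 to DL 4, against 280.5, 306.5, 408 and 268 FPKM in NL 1 to NL 4. NL 3 was the highest library, and the remaining NL libraries lay within the DL range. The log2 change was -0.10 ± 0.19 (interval -0.53 to 0.32; limma adjusted p = 0.801), and it turned to 0.02 without NL 3.

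**Figure D2:**
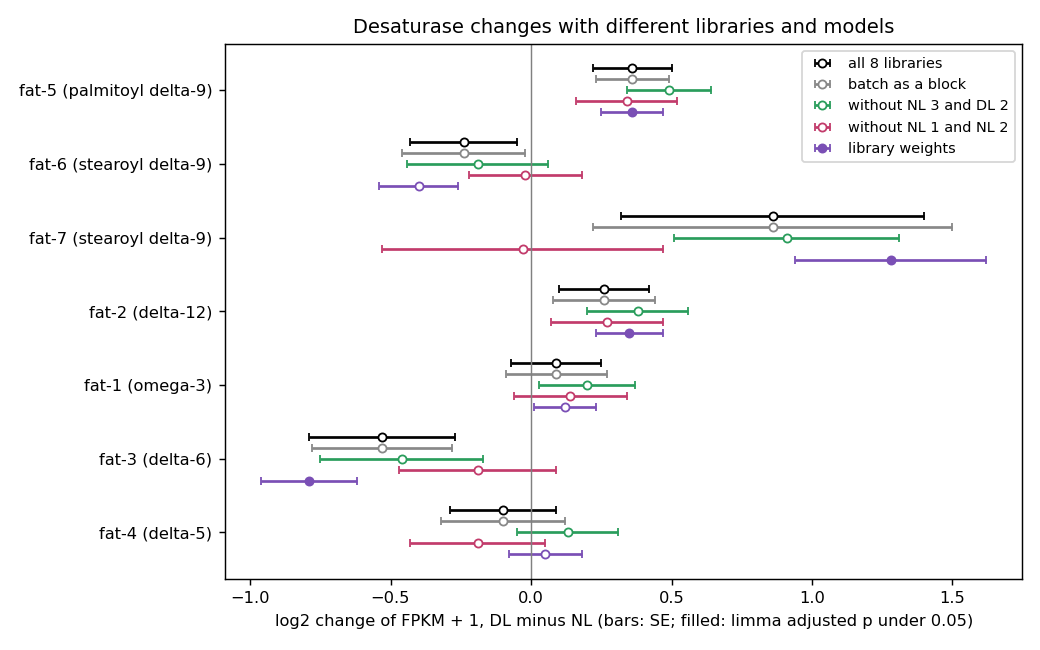
Log2 change of FPKM + 1, DL minus NL (horizontal axis; bars are SE), of each desaturase gene under 5 models or library choices; a filled symbol has a limma adjusted p under 0.05. With all 8 libraries weighted equally no symbol is filled, fat-7 moves to -0.03 without NL 1 and NL 2, and the filled symbols belong to the fit with library weights.

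Weighting the libraries changed these calls. With weights estimated from the spread of all genes, limma called 4 of the 7: fat-2 (log2 change 0.35, limma adjusted p = 0.0409), fat-5 (0.36, 0.0311) and fat-7 (1.28, 0.0165) higher in DL, and fat-3 (-0.79, 0.00657) lower. The same fit called 36.1% of all tested genes, 20.9% higher and 15.2% lower. Its weights were 0.49, 0.426, 1.54 and 2.46 for DL 1 to DL 4, and 3.48, 3.34, 0.323 and 0.337 for NL 1 to NL 4, highest for the 2 NL libraries that were most alike. With the labelled batch as a block, limma called 0 of the 7 and 25 of all genes, or 0.174%.

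Differences between the libraries of a group were far larger than counting error. For fat-7 the coefficient of variation was 63.4% within DL and 77.7% within NL, where counting alone would give 4.54% and 6.03%. For fat-6 it was 12.6% within DL and 20.9% within NL, against 0.906% and 0.842% from counting. The fat-3 values were 31.3% and 27.2%. Pooled over both groups, the SD of log2(FPKM + 1) was 0.93 for fat-7 and 0.42 for fat-3, against a median of 0.31 over all tested genes, and 0.17 to 0.26 for the other 5. Within the family, fat-7 and fat-3 thus varied more than the median tested gene, and fat-1, fat-2, fat-4, fat-5 and fat-6 less.

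Relative levels within the family were described without a test, since the members are a chosen set. For 4 of the 21 ratios of 2 members the groups did not overlap, or 19%, against 11.4% of all ratios of 2 tested genes without a 0 value. The ratio of fat-5 to fat-6 was 0.1002, 0.104, 0.124 and 0.0892 in DL 1 to DL 4, against 0.0681, 0.0489, 0.0814 and 0.0790 in NL 1 to NL 4. Each DL library thus had more fat-5 per fat-6 than each NL library. The ratio of fat-2 to fat-6 was 0.946 to 1.19 in DL and 0.569 to 0.934 in NL, that of fat-2 to fat-4 was 1.71 to 2.07 in DL and 1.16 to 1.70 in NL, and that of fat-3 to fat-5 was 1.80 to 3.04 in DL and 3.07 to 6.19 in NL. These gaps were narrow against the spread within groups, also for fat-5 to fat-6 (0.0892 in DL 4 against 0.0814 in NL 3). The 4 ratios share members, so they are not separate observations. Summed, the 3 Δ9 genes made up 27.98 to 33.9% of the family's FPKM in DL and 30.1 to 37.3% in NL, ranges that overlapped.

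The pair of stearoyl desaturases was dominated by fat-6 in every library. Of the FPKM of fat-6 and fat-7 together, fat-7 made up 2.96%, 8.24%, 2.51% and 2.42% in DL 1 to DL 4, against 0.82%, 0.576%, 4.06% and 3.11% in NL 1 to NL 4. The fat-6 level was 11.1 to 40.3 times that of fat-7 in DL, and 121, 173, 23.6 and 31.1 times in NL 1 to NL 4. The 2 genes are close relatives, and how reads that match both were counted is not given in the sources used here, so reads that match both cannot be told apart, and their part in these values was not tested. NL 2, which had the most fat-6, had the least fat-7.

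**Figure D3:**
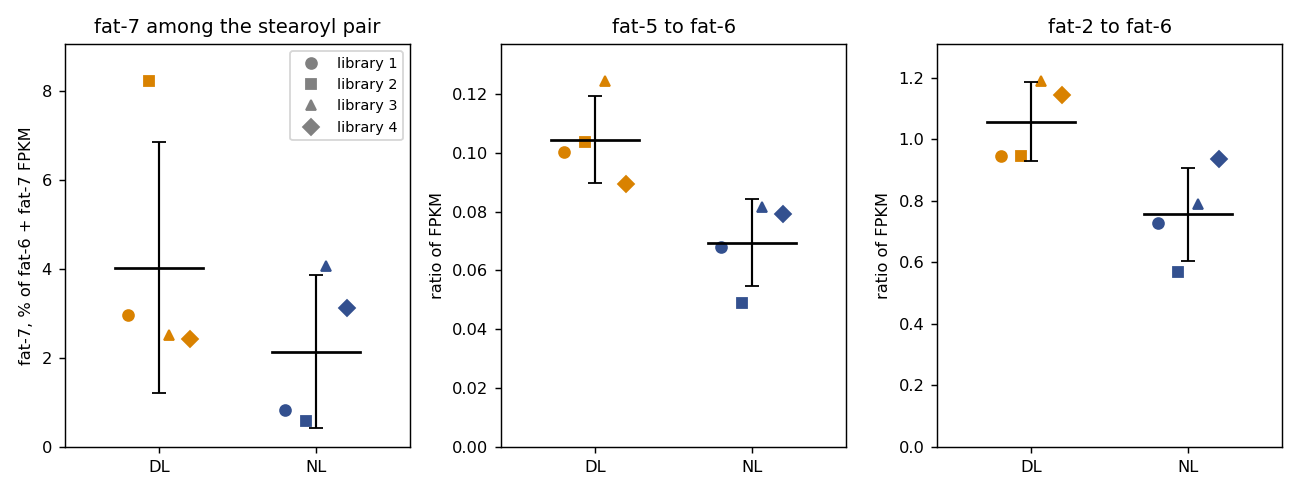
Share of fat-7 in the summed FPKM of fat-6 and fat-7 (left), and ratios of FPKM of fat-5 to fat-6 (middle) and fat-2 to fat-6 (right), in DL and NL libraries; symbols are libraries, lines the mean and SD. The fat-7 share reaches 8.24% in DL 2 and is under 1% in NL 1 and NL 2, and both ratios are higher in each DL library than in each NL library.

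The genes that supply, assist and regulate the desaturases gave no call either. Over 9 lists of 63 lipid genes, all above the filter, limma called 0, and 11 of the 63 (17.5%) had an unadjusted p under 0.05, 7 higher and 4 lower in DL, against 20.6% of all tested genes. The log2 change was positive for 61.9% of the 63 and for 53.5% of all tested genes, with medians of 0.07 and 0.03. Without both NL 1 and NL 2 it was positive for 29 of the 63 (median -0.04).

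Elongases lengthen fatty acids between desaturation steps, and 8 of their 9 genes had a positive log2 change (median 0.38). Without both NL 1 and NL 2 only 3 of the 9 did (median -0.21). The largest belonged to elo-8, at 8.42, 15.1, 6.48 and 4.61 FPKM in DL 1 to DL 4, against 0.278, 0.688, 5.44 and 0 FPKM in NL 1 to NL 4 (log2 change 2.21 ± 0.57, limma adjusted p = 0.10). It was followed by elo-7, at 11.9, 13.5, 5.40 and 5.83 FPKM in DL and 1.30, 1.81, 10.2 and 0.457 FPKM in NL (1.57 ± 0.59, limma adjusted p = 0.17). In both genes NL 3 lay within the DL range and the other NL libraries below it. The 26 sperm markers, whose mean log2(FPKM + 1) was 5.14, 7.02, 5.1 and 4.82 in DL 1 to DL 4 and 1.61, 1.87, 5.18 and 0.58 in NL 1 to NL 4, were likewise low in NL 1, NL 2 and NL 4. Their summed FPKM was 868 to 4184 in DL and 15.8 to 1172 in NL, with 5 of the 26 at 0 in some library, and their part in the elo-8 and elo-7 values was not tested. Without NL 3 both passed, with log2 changes of 2.79 for elo-8 (limma adjusted p = 0.00687) and 2.17 for elo-7 (limma adjusted p = 0.0113), in a fit that called 1561 genes. Without both NL 1 and NL 2 neither passed, at 1.81 for elo-8 (limma adjusted p = 0.505) and 1.24 for elo-7 (limma adjusted p = 0.56).

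Of the 7 genes of fatty acid synthesis and the elongation cycle none passed (median 0.23, and -0.01 without both NL 1 and NL 2). The ATP citrate lyase genes acly-1 and acly-2, whose enzymes supply acetyl-CoA, had log2 changes of 0.59 ± 0.30 and 0.28 ± 0.18 (limma adjusted p = 0.321 and 0.426). That of acly-1 was 0.01 without both NL 1 and NL 2 and 0.36 without NL 1 alone, and that of acly-2 was 0.15 without DL 2. Of 4 genes of the cytochrome b5 chain, which passes electrons to desaturases, none passed (median 0.04), with T05H4.4 at -0.42 ± 0.22 and cytb-5.2 at 0.09 ± 0.22. The sphingolipid desaturase genes ttm-5 and F33D4.4 stood at 0.28 ± 0.15 and 0.03 ± 0.15.

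The 13 regulators of desaturase genes had a median log2 change of -0.08, with 8 negative values. The lowest p belonged to daf-16, the FOXO transcription factor gene of insulin signalling, at 42.9, 34.2, 34.6 and 33.8 FPKM in DL 1 to DL 4, against 55.1, 53.2, 47.8 and 50.6 FPKM in NL 1 to NL 4. The groups did not overlap, as for 9.24% of tested genes (log2 change -0.50 ± 0.13, limma adjusted p = 0.0991). Without NL 3, daf-16 passed (-0.54, limma adjusted p = 0.0456) in a fit that called 10.9% of tested genes. Without both NL 1 and NL 2 its log2 change was -0.43 (limma adjusted p = 0.505). Expression of mdt-15, a Mediator subunit gene whose product works with SBP-1 and NHR-49 on fat genes, was 42.5 to 47.6 FPKM in DL and 46.1 to 63.1 FPKM in NL (-0.34 ± 0.13, limma adjusted p = 0.194). For sbp-1, the SREBP homolog, the log2 change was -0.37 ± 0.18 (limma adjusted p = 0.295), and for nhr-49, a nuclear hormone receptor gene, it was -0.15 ± 0.14 (limma adjusted p = 0.599). Without both NL 1 and NL 2 the values were -0.19 for mdt-15, -0.14 for sbp-1 and -0.09 for nhr-49. The last pair were added to the named genes after their values were seen.

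**Figure D4:**
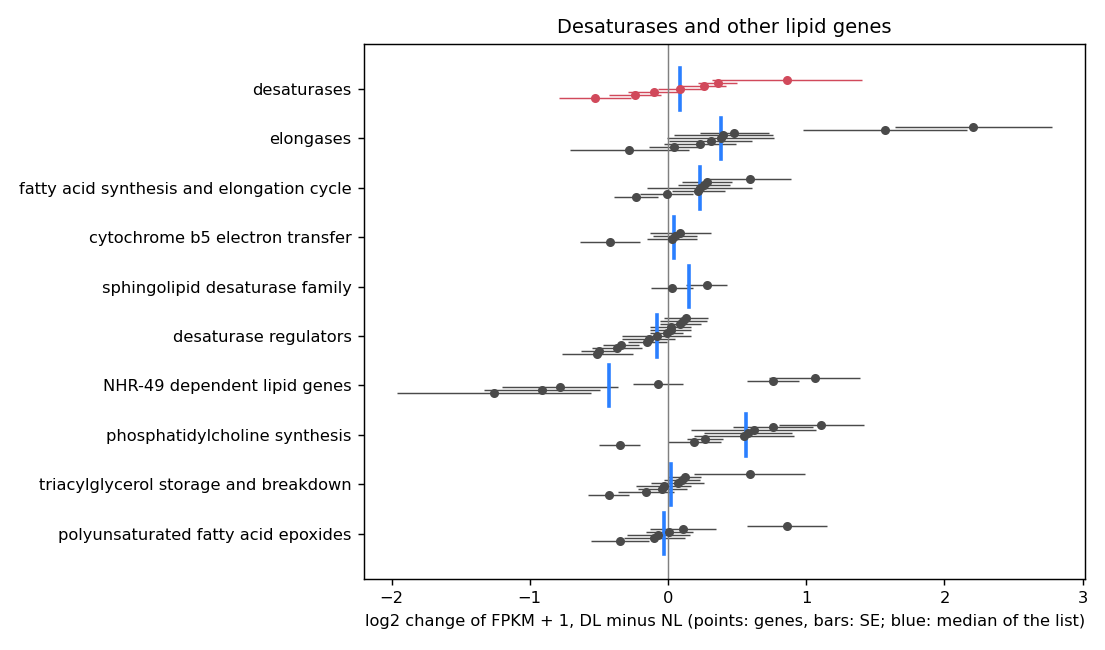
Log2 change of FPKM + 1, DL minus NL, of each gene (points; bars are SE) in the desaturase family and 9 lists of lipid genes, with the median of each list in blue. No point passed the limma threshold, and the medians over all 8 libraries run from -0.43 (NHR-49 dependent lipid genes) to 0.56 (phosphatidylcholine synthesis).

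Phosphatidylcholine synthesis, which is linked to desaturase expression in worms through SBP-1, had 7 positive values in 8 genes and a median of 0.56. That count rests on NL 1 and NL 2, without which 3 of the 8 values were positive and the median was -0.05. The choline kinase gene ckb-2 stood at 15.6, 15.8, 32.1 and 33.4 FPKM in DL 1 to DL 4, against 7.61, 7.53, 12.9 and 13.2 FPKM in NL 1 to NL 4. The groups did not overlap, as for 9.24% of tested genes (1.11 ± 0.31, limma adjusted p = 0.105). Without both NL 3 and DL 2, ckb-2 passed (1.39, limma adjusted p = 0.0449) in a fit that called 10.4% of tested genes. Its log2 change was 0.76 (limma adjusted p = 0.505) without both NL 1 and NL 2. The gene pcyt-1, of the step after choline kinase, had a log2 change of 0.76 ± 0.29 (limma adjusted p = 0.181). Without NL 3 it was 1.02 (limma adjusted p = 0.0314), in a fit that called 10.9% of tested genes. Without both NL 1 and NL 2 it was 0.27. In the list of 8 genes of triacylglycerol storage and breakdown (median 0.02), seip-1, the seipin gene of lipid droplets, had -0.43 ± 0.15 (limma adjusted p = 0.159) and dgat-2, an acyltransferase gene, 0.59 ± 0.40, or 0.17 without both NL 1 and NL 2. In the list of 6 genes linked to epoxides of polyunsaturated fatty acids (median -0.03), the cytochrome P450 gene cyp-13A12 had 0.86 ± 0.29 (limma adjusted p = 0.138), or 0.46 without both NL 3 and DL 2, and cyp-29A3 -0.35 ± 0.21.

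The 6 NHR-49 dependent lipid genes had a median of -0.43, with 2 positive and 4 negative values. Without both NL 1 and NL 2 the median was 0.06. Those with the lowest p were cpt-5, a carnitine palmitoyltransferase family gene (0.76 ± 0.19, limma adjusted p = 0.0977), and ech-1.1, an enoyl-CoA hydratase gene (1.06 ± 0.33, limma adjusted p = 0.12). Leaving out NL 3 or batch 3 brought cpt-5 past the threshold (limma adjusted p = 0.0401 and 0.027), in fits that called 10.9% and 7.63% of tested genes. Without both NL 1 and NL 2 the log2 change was 0.65 for cpt-5 (limma adjusted p = 0.505) and 0.53 for ech-1.1. Other lipid genes set NL 1 and NL 2 apart, as fat-7 did, and these were chosen after their values were seen. The acyl-CoA synthetase gene acs-2 stood at 184, 80.7, 129 and 158 FPKM in DL 1 to DL 4, against 809, 861, 151 and 97.0 FPKM in NL 1 to NL 4. The glyoxylate cycle gene icl-1 stood at 479 to 619.8 FPKM in the DL libraries, against 1735, 2138, 583 and 618 FPKM in NL 1 to NL 4. Both genes were high in NL 1 and NL 2, the libraries in which fat-7 was lowest.

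The reverse held for several genes of lipid synthesis, which were low in NL 1 and NL 2 as fat-7 was. Described here are 3, chosen after their values were seen. Among the others, elo-5 stood at 204 and 186 FPKM in NL 1 and NL 2, against 375 FPKM or more elsewhere. For cept-1 the values were 12.3 and 12.5 FPKM, against 28.8 FPKM or more. Over all genes, too, NL 1 and NL 2 differed from NL 3 and NL 4 (chi-square per gene 100 to 116). The share of tested genes with this pattern was not counted. The S-adenosylmethionine synthetase gene sams-1 stood at 267 to 414 FPKM in the DL libraries, against 116, 131, 405 and 445 FPKM in NL 1 to NL 4. The palmitic acid elongase gene elo-2 stood at 216 to 286 FPKM in DL, against 117, 106, 351 and 312 FPKM in NL, and the fatty acid synthase gene fasn-1 at 69.5 to 96.4 FPKM in DL, against 37.4, 42.3, 97.9 and 129.6 FPKM in NL. In sams-1, elo-2 and fasn-1, NL 3 and NL 4 lay within or above the DL range. Without both NL 1 and NL 2 the log2 change of acs-2 was 0.13, of icl-1 -0.07, of sams-1 -0.27, of elo-2 -0.40 and of fasn-1 -0.51, against -1.26, -0.91, 0.62, 0.38 and 0.23 with all 8 libraries. The intestinal esterase gene ges-1, a marker of the tissue in which fat-6 and fat-7 are known to be expressed, stood at 47.9 to 66.6 FPKM in the DL libraries, against 114, 107, 70.2 and 65.5 FPKM in NL 1 to NL 4. Of the other intestinal markers, the intermediate filament gene ifb-2 was also highest in NL 1 and NL 2, at 166 to 278 FPKM in DL, against 398, 379, 223 and 299 FPKM in NL 1 to NL 4. The peptide transporter gene pept-1, like ifb-2 chosen after its values were seen, was not, and stood at 69.5 to 95.2 FPKM in DL, against 94.2, 78.7, 110.5 and 138 FPKM in NL 1 to NL 4. Over the 7 markers the mean log2(FPKM + 1) was 6.36, 6.48, 6.65 and 6.84 in DL 1 to DL 4. It was 6.81, 6.72, 6.68 and 6.90 in NL 1 to NL 4. NL 1 and NL 2 thus did not stand apart in the intestinal list. The summed FPKM of the 7 markers was 1472 to 2418 in DL and 1794 to 2092 in NL, with none at 0 in any library. Lists of other tissues differed in this. The hypodermis mean was lowest in NL 1 and NL 2, at 6.04 and 6.0, against 6.34 to 6.89 elsewhere, although elt-3 was not low there. The muscle mean was highest in them, at 8.27 and 8.28, against 7.37 to 8.17, although tni-1 was not. The neuron means of NL 1 and NL 2, 5.09 and 5.15, lay between DL 1 (5.07) and NL 4 (5.26). The part of these tissues in the fat-7 values was not tested. In whole animals, a smaller share of intestinal RNA and a lower level within the intestine cannot be told apart. The part of either in the fat-7 values was not tested.

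**Figure D5:**
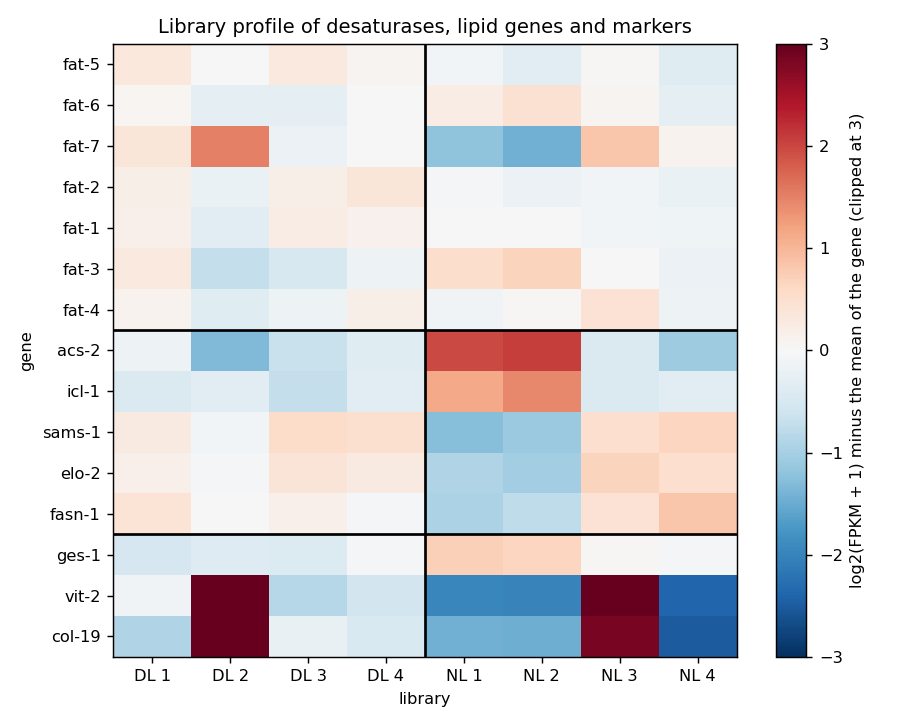
Log2(FPKM + 1) of each gene (rows) in each library (columns) minus the mean of that gene over the 8 libraries, clipped at 3; DL libraries stand left of NL libraries. NL 1 and NL 2 are low in fat-7, sams-1, elo-2 and fasn-1 and high in acs-2, icl-1 and ges-1, and DL 2 and NL 3 are high in vit-2, col-19 and fat-7.

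Genes with the most similar profile over the 8 libraries were sought among 6078 named genes averaging 5 FPKM or more, by Pearson's r of log2(FPKM + 1), as a description. The libraries share batches and the differences in adult and sperm transcripts given above. For fat-7 the closest were wrt-6 (r = 0.991), dnj-11 (0.989) and wrt-4 (0.975). The hedgehog-related gene wrt-6 stood at 66.1, 144, 41.0 and 51.5 FPKM in DL 1 to DL 4, against 19.9, 21.98, 85.7 and 48.1 FPKM in NL 1 to NL 4, the order of libraries being close to that of fat-7. For fat-3 they were enpp-1 (0.989), str-176 (0.977) and nhr-135 (0.974), and for fat-6 glna-2 (0.95), pals-39 (0.948) and nfm-1 (0.948). The profile of fat-4 was closest to those of math-18 (0.923), far-5, a fatty acid and retinol binding protein gene (0.915), and smoc-1 (0.913). For fat-2 the genes were scrm-4 (0.93), fbxa-74 (0.928) and skr-3 (0.927), for fat-1 ttr-23 (0.948), srlf-35 (0.922) and abf-5 (0.909), and for fat-5 piga-1 (0.892), lep-2 (0.891) and cyp-44A1 (0.883). No desaturase gene was among the 3 closest genes of another.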

How the data were processed

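The deposited values are FPKM, 1 column per library, per the file headers; the submitters' processing notes name HISAT2, HTSeq and WBcel235. The sources used here do not state the annotation, the strand setting or how reads with several matches were handled. Libraries were made from poly(A)-selected RNA with a kit that does not mark strand, per the labels' protocols. With exon lengths from the Ensembl annotation of WBcel235 (release 115), 22881 of 22985 genes (99.55%) gave whole reads in all 8 libraries within 0.05 read; these reads describe depth and counting error only.

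Values were tested as log2(FPKM + 1), which understates changes of low genes, for 14358 genes averaging 1 FPKM or more, with limma 3.58.1 in R 4.3.3 (empirical Bayes, intensity trend, adjustment over all genes). Tables were made with pandas 2.3.3 and figures with matplotlib 3.10.9, in Python 3.11.15. The steps were tested on simulated data. The members, lists and tests were chosen with earlier results of these data known. Named were the 7 members, the 2 lipid genes with the smallest p of each list, and the 3 genes most alike to each member; others are said to be chosen after their values were seen. Same-numbered libraries share a batch, per the labels. They were paired only in the batch block, in the batches left out and in the counts of batches with DL above NL. The deviations from the group means correlated at -0.01, -0.19, -0.32 and 0.19 within batches. Between batches they correlated at -0.37 to 0.59, with the highest value for DL 2 and NL 3. The reported fit has no batch term. Alternatives covered the pseudocount, filter, scaling, batch block, trend, library weights and libraries left out. Protein, promoter and genome sequences were not used here.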

Additional observations from a re-analysis of the deposited data

Results flagged for a closer look

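No desaturase gene had a library that stood apart from the rest of its group by Dixon's test. Among the 25 lipid genes named beside them 6 values did; with 64 groups examined in all, chance alone flags about 1 group in 20. In NL 3, elo-8 stood at 5.44 FPKM, against 0 to 0.688 FPKM in the other NL libraries, and elo-7 at 10.2 FPKM, against 0.457 to 1.81 FPKM. In DL 1, F33D4.4 stood at 66.3 FPKM, against 48.3 to 49.3 FPKM in the other DL libraries. In the same library daf-16 stood at 42.9 FPKM, against 33.8 to 34.7 FPKM, mdt-15 at 47.6 FPKM, against 42.5 to 43.1 FPKM, and nhr-49 at 53.5 FPKM, against 39.0 to 41.3 FPKM.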

How the results depend on the processing

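Of the 23 alternatives, none called fat-1, fat-4 or fat-6, and library weights alone called fat-2 (0.35), fat-3 (-0.79), fat-5 (0.36) and fat-7 (1.28), so that 4 desaturase genes passed against 0. Over single libraries or batches left out, log2 changes ran from 0.02 to 0.22 for fat-1, 0.15 to 0.36 for fat-2, -0.71 to -0.24 for fat-3, -0.26 to 0.06 for fat-4, 0.30 to 0.43 for fat-5, -0.42 to -0.07 for fat-6 and 0.16 to 1.48 for fat-7. The sign of fat-4 turned with library weights (0.05) and without both NL 3 and DL 2 (0.13), and that of fat-7 without both NL 1 and NL 2 (-0.03). With the batch as a replicate block, which leaves 3 residual degrees of freedom against 6, 25 genes were called against 101, and no desaturase or lipid list call changed; log2 changes are the same by construction. Counts over all genes were 33 without a filter, 216 with quantile normalization, 5189 with library weights, 1493 without both NL 3 and DL 2, 6 without both NL 1 and NL 2, and 0 (without batch 1) to 1561 (without NL 3) with single libraries or batches left out, where those without DL 1 (42), DL 3 (19), DL 4 (15), NL 1 (9), NL 2 (9), NL 4 (221), batch 2 (13) and batch 3 (1096) also differed by over 1.5 times. The split of higher and lower calls was 42 and 59, against 41 and 32 with equal sums, 67 and 149 with quantile normalization and 44 and 106 with centring; no scaling shifted the median gene by over 0.1. Lipid list genes called were 31 with library weights, 3 without both NL 3 and DL 2 and 0 to 5 with libraries left out, against 0; the 5 without NL 3 were elo-7, elo-8, daf-16, cpt-5 and pcyt-1. Signs also turned for F33D4.4 with centring (-0.02), quantile normalization (-0.01), without both NL 1 and NL 2 (-0.06) and with libraries left out (-0.10 to 0.14), for cytb-5.2 (-0.10 to 0.28) and fasn-1 (-0.14 to 0.60) with libraries left out, and without both NL 1 and NL 2 for acs-2 (0.13), elo-2 (-0.40), fasn-1 (-0.51) and sams-1 (-0.27). The cause of these shifts was not tested. Counting error was largest for fat-7, with 100 reads in NL 2, but far smaller than its spread between libraries.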
